A study of Arabidopsis thaliana with 9 samples.

Results

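Salicylate and pipecolate are small molecules that Arabidopsis makes in defence, and 10 genes that make, move, modify or switch on their synthesis are described here. They were taken by locus identifier, and the set was chosen with earlier results of these data known. The genes are ALD1 (AT2G13810), SARD4 (AT5G52810), FMO1 (AT1G19250), UGT76B1 (AT3G11340), ICS1 (AT1G74710), EDS5 (AT4G39030), PBS3 (AT5G13320), CBP60G (AT5G26920), SARD1 (AT1G73805) and PAD4 (AT3G52430). All 10 are among the 29420 genes of the count table, and 9 of the 10 passed the filter on low counts that left 20171 genes for testing. FMO1 did not pass it. The filter asked for any 3 libraries at 1.09 CPM (counts per 1e6 counts of the library). ALD1 reached this in its 3 WT libraries only, and UGT76B1 in 3 WT and 2 hda9-1 libraries, so neither would have passed without WT. Counts over the tested members therefore describe these genes and are not evidence by themselves.

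Polyadenylated RNA of seedlings was sequenced from 3 genotypes in the Col ecotype, with 3 biological replicates each by the study's design. WT is the unmutated control, hda9-1 carries a mutation in HDA9, which encodes a histone deacetylase, and pwr-2 carries one in POWERDRESS (PWR), the gene of a SANT-domain protein. All seedlings were 10 days old and had grown on MS agar at 23 °C with 16 h of light and 8 h of dark a day, without a pathogen or another treatment in the labels. How many seedlings each library held is not given in the sources used here.

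In the salicylate branch, ICS1 (isochorismate synthase) converts chorismate to isochorismate in the chloroplast, EDS5 exports isochorismate to the cytosol, and PBS3 joins it to glutamate, a product that breaks down to salicylic acid. In the pipecolate branch, ALD1 removes the amino group of lysine, SARD4 reduces the cyclic product to pipecolic acid, and FMO1 turns pipecolic acid into N-hydroxypipecolic acid, a mobile signal of systemic acquired resistance. UGT76B1 attaches glucose to N-hydroxypipecolic acid and to salicylic acid, which takes them out of the active pool. CBP60G and SARD1 are related transcription factors that switch on genes of both branches, and PAD4 is a lipase-like protein that acts with EDS1 upstream of them.

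The libraries held 6450661 to 11150773 counts, so that the detection floor of 3 counts in a library lay at 0.259 to 0.491 CPM, the library size being adjusted with TMM factors. Such floors, like the counting intervals given for low genes, describe counting error alone, since PCR copies of a molecule are not independent. HDA9 had 7.03 ± 0.43 CPM (SD, n = 3) in hda9-1 against 38.0 ± 1.4 in WT, and PWR had 48.7 ± 7.4 CPM in pwr-2 against 140.5 ± 6.8 in WT, so each mutant's own gene was low in its libraries. Each mutant also differed from WT in the other gene, by edgeR's quasi-likelihood test described below. HDA9 was lower in pwr-2 (log2 fold change -0.226, SE 0.072, adjusted p = 0.0326), and PWR was higher in hda9-1 (0.441, SE 0.079, adjusted p = 0.00146). Replicate 3 of hda9-1 was the smallest library and carried the most ribosomal RNA, at 265 CPM, where the remaining 8 libraries had 34.1 to 103.7 CPM. The 4 leaf genes of the tissue check held 9680 to 14846 counts per library together. Of the genes listed for root, SHR, SCR and WOX5 were detected, WOX5 at 6 to 23 counts. Whether these reads came from roots was not tested. The root hair genes COBL9 and EXPA7 had 3 to 12 and 0 to 9 counts and the root tip gene PLT1 0 to 6 counts, near the floor in libraries labelled as seedlings. The flower genes AP1, AP3, AG and PI together held 47 to 134 counts per library, with the most in hda9-1 replicate 2. The seed genes CRA1, CRU3, OLEO1 and LEC1 together held 3 to 35 counts.

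The promoters of ALD1, FMO1, UGT76B1 and ICS1 are printed because they hold the letters GAAATTT, the element that SARD1 and CBP60G are known to bind, and because ALD1, FMO1 and UGT76B1 had the largest fold differences from WT among the 10 genes. Each window runs from 250 bases before to 50 bases after the annotated gene start in RefSeq's TAIR10.1, written 5′ to 3′ on the gene's strand, and capitals mark GAAATTT read on either strand.
ALD1, chr2:5768167-5768466, plus strand: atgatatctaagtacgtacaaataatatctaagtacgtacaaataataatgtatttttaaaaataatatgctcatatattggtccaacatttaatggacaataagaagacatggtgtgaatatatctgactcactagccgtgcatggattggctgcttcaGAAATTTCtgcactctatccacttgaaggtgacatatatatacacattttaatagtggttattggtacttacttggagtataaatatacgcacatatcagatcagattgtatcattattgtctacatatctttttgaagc
FMO1, chr1:6653146-6653445, minus strand: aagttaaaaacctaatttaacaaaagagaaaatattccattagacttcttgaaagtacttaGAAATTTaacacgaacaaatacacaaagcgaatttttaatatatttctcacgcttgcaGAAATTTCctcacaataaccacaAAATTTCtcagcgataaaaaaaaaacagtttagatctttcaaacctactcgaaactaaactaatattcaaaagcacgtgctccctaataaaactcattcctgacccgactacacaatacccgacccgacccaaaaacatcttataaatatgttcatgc
UGT76B1, chr3:3556304-3556603, plus strand: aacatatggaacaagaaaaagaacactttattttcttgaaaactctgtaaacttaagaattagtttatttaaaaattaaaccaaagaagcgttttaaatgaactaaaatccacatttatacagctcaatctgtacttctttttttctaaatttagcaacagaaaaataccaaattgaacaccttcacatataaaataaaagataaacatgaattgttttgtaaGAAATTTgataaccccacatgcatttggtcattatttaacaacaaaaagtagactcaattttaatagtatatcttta
ICS1, chr1:28070045-28070344, plus strand: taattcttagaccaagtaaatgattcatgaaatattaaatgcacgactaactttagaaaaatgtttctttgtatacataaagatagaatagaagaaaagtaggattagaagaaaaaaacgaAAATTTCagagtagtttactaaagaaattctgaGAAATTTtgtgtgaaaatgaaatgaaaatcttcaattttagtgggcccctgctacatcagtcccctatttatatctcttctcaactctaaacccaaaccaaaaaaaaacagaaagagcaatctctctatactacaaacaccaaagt
The element occurred 2 times in ALD1, where the matches on the opposite strands overlap in 1 run of capitals, 4 times in FMO1 in 3 runs, 1 time in UGT76B1 and 2 times in ICS1. It was in the windows of 4 of the 10 members and in 14.2% of 27438 protein-coding promoters of the same length. SARD4, EDS5, PBS3, CBP60G, SARD1 and PAD4 had no match in this window. TTGAC, the core of the W box of WRKY factors, was in 5 of the 10 windows and in 50.5% of all, and the 4 printed windows did not hold it. TGACG, the core element of TGA factors, was in 2 windows, those of CBP60G and SARD1, against 23.1% of all, and in both windows a match shares bases with a TTGAC match. CGCG, the core of the CAMTA box, was in 1 window, that of SARD1, against 13% of all. Both strands were searched for each element, and a match is a description of the letters, not of binding.

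In TAIR10.1 the pipecolate genes lie on different chromosomes, ALD1 at chr2:5768417-5772266 (plus strand), SARD4 at chr5:21399331-21400686 (plus strand), FMO1 at chr1:6650476-6653195 (minus strand) and UGT76B1 at chr3:3556554-3558361 (plus strand). The salicylate genes are ICS1 at chr1:28070295-28074177 (plus strand), EDS5 at chr4:18185437-18189224 (plus strand) and PBS3 at chr5:4267456-4271064 (plus strand). The regulators are CBP60G at chr5:9475679-9478777 (plus strand), SARD1 at chr1:27744790-27749248 (minus strand) and PAD4 at chr3:19431095-19434450 (plus strand). PWR lies near PAD4, at chr3:19376138-19383369 (plus strand), and whether this bears on the level of PAD4 in pwr-2 was not tested. ALD1, FMO1, UGT76B1, PBS3 and CBP60G shared no exon bases with another gene and held no stretch of 50 bases found elsewhere in the genome. PAD4 also shared no exon bases, and 6 of its 2157 stretches of 50 bases occur elsewhere.

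In WT the 10 genes lay at different levels when CPM were divided by exon length in kilobases. SARD4 had 21.9 ± 3.2 CPM per kb (SD, n = 3), PAD4 18 ± 0.98, ICS1 17.4 ± 2.2 and CBP60G 16.3 ± 6.7. SARD4 stood above PAD4 by slightly more than its SD, and PAD4, ICS1 and CBP60G differed by less than their spread. EDS5 followed with 11.5 ± 2.0, PBS3 with 10.2 ± 1.6 and SARD1 with 7.45 ± 2.7 CPM per kb, and EDS5 and PBS3 were within their spread of each other. ALD1, UGT76B1 and FMO1 were lowest, at 3.89 ± 3.3, 3.34 ± 2.4 and 2.29 ± 2.4 CPM per kb, with SDs close to their means.

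ALD1 fell in both mutants and UGT76B1 in pwr-2, each to 7 or fewer counts in the libraries concerned. FMO1, which was not tested, had 0 to 6 counts in the mutant libraries against 37, 4 and 79 in WT. PBS3 and PAD4 fell in both mutants. ICS1 and EDS5, the other salicylate genes, differed less, and CBP60G was the single member called higher in a mutant. Changes are given as log2 fold changes with standard errors (SE) from edgeR's quasi-likelihood test, and a gene is called at a Benjamini-Hochberg adjusted p under 0.05 over all tested genes. In RNA of seedlings, fewer cells that express a gene and less RNA per cell cannot be told apart.

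**Figure D1:**
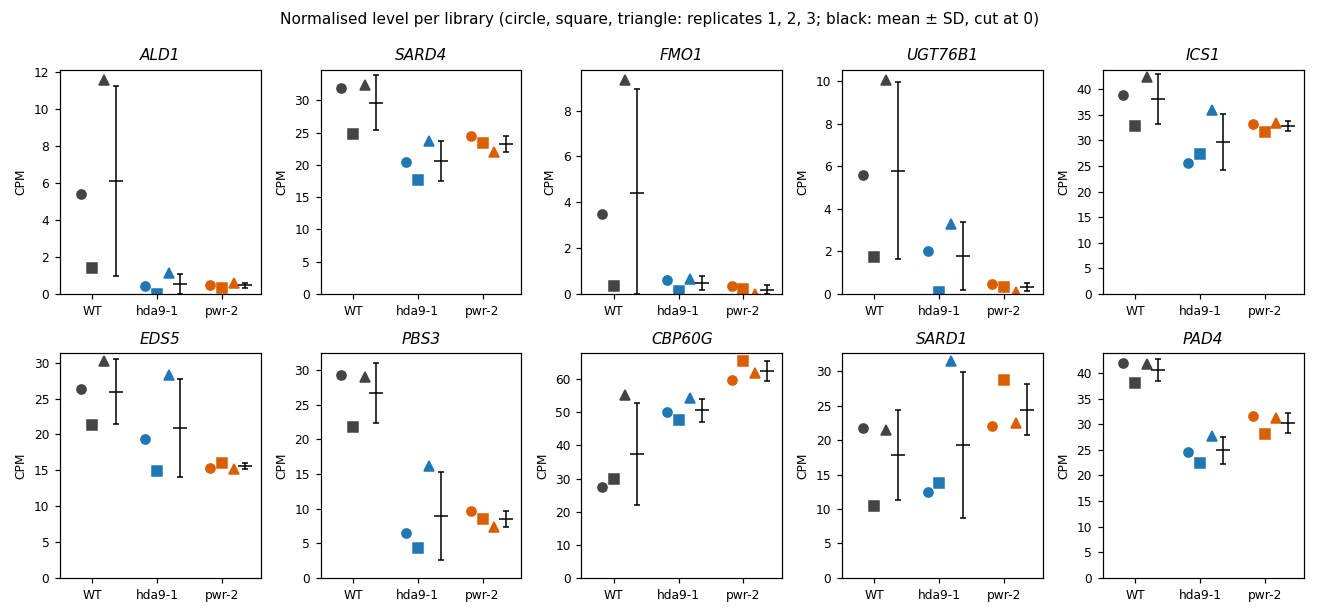
Normalised level (CPM, linear axis from 0) of each of the 10 genes in every library, with symbols for replicates 1 to 3 and the mean ± SD of the 3 libraries in black. ALD1 lies at 1.38 to 11.6 CPM in WT and at 0 to 1.15 CPM in the mutants, while CBP60G is highest in pwr-2, at 59.6 to 65.6 CPM.

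ALD1, the aminotransferase that opens pipecolate synthesis, had 57, 16 and 98 counts in WT, or 5.39, 1.38 and 11.6 CPM. It had 4, 0 and 7 counts in hda9-1, or 0.421, 0 and 1.15 CPM, where the 0 allows up to 0.331 CPM (3 counts). In pwr-2 it had 4, 3 and 5 counts, or 0.492, 0.322 and 0.569 CPM. Every mutant library was below every WT library, although WT replicate 2 and hda9-1 replicate 3 were close to each other. ALD1 fell by 3.67 on the log2 scale in hda9-1 (SE 0.85, adjusted p = 0.00633) and fell by 3.66 in pwr-2 (SE 0.83, adjusted p = 0.00678). With 11 counts in all of hda9-1 and 12 in all of pwr-2, the log2 ratios of summed counts had counting intervals of -4.68 to -2.77 and -4.59 to -2.77 (exact binomial, 95%).

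FMO1, which makes N-hydroxypipecolic acid, followed the same libraries. It had 37, 4 and 79 counts in WT, or 3.5, 0.345 and 9.32 CPM, with replicate 2 near the floor. In hda9-1 it had 6, 1 and 4 counts, or 0.631, 0.110 and 0.655 CPM. In pwr-2 it had 3, 2 and 0 counts, or 0.369, 0.215 and 0 CPM, where the 0 allows up to 0.341 CPM. The groups overlapped, because WT replicate 2 was lower than 2 hda9-1 libraries and 1 pwr-2 library. FMO1 was not tested in the filtered fit. Without the filter its log2 fold change was -3.20 in hda9-1 (SE 0.90, adjusted p = 0.0154) and -4.37 in pwr-2 (SE 1.03, adjusted p = 0.00631). DESeq2 called it lower in both mutants (adjusted p = 0.00634 in hda9-1 and 0.000526 in pwr-2). FMO1 was also tested where a library was left out and the filter then let it pass. It did not pass without WT replicate 1 or WT replicate 3, which hold most of its WT counts, so dependence on either was not tested. In hda9-1 it was not called without hda9-1 replicate 1 (adjusted p = 0.0520), hda9-1 replicate 2 (adjusted p = 0.0976) or hda9-1 replicate 3 (adjusted p = 0.0543), and in pwr-2 it was not called without pwr-2 replicate 2 (adjusted p = 0.0502).

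UGT76B1, the glucosyltransferase of both products, had 59, 20 and 85 counts in WT (5.58, 1.73 and 10.0 CPM). In hda9-1 it had 19, 1 and 20 counts (2.0, 0.110 and 3.28 CPM) and in pwr-2 4, 3 and 1 (0.492, 0.322 and 0.114 CPM). All pwr-2 libraries were below WT, whereas hda9-1 replicates 1 and 3 were above WT replicate 2. UGT76B1 fell by 4.14 in pwr-2 (log2, SE 0.92, adjusted p = 0.00624), from 8 counts in all, with a counting interval of -5.37 to -3.12. In hda9-1 its log2 fold change was -1.75 (SE 0.69, adjusted p = 0.0705), which was called with the replicate number as a block (adjusted p = 0.00905 over 9 libraries and 0.000142 over the 6 of WT and hda9-1), without WT replicate 2 (adjusted p = 0.0217) and without hda9-1 replicate 3 (adjusted p = 0.0471). The block, here and below, rests on a pairing read from these data, not from the labels, so its adjusted p are a description only.

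SARD4, the reductase that completes pipecolic acid, stayed abundant. It had 31.9, 24.7 and 32.3 CPM in WT, 20.4, 17.7 and 23.7 CPM in hda9-1 and 24.5, 23.3 and 21.9 CPM in pwr-2. The mutant libraries were below all WT libraries, by a narrow margin. SARD4 fell by 0.53 in hda9-1 (log2, SE 0.12, adjusted p = 0.00624) and by 0.34 in pwr-2 (log2, SE 0.12, adjusted p = 0.0448). The second of these calls was lost with loess offsets (adjusted p = 0.184), with DESeq2 (0.0891) and without WT replicate 1 (0.152), WT replicate 3 (0.121), pwr-2 replicate 1 (0.0698), pwr-2 replicate 2 (0.106) or pwr-2 replicate 3 (0.126). SARD4 shares 6.56% of its exon bases with AT5G52800, so reads there may be counted for either gene.

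**Figure D2:**
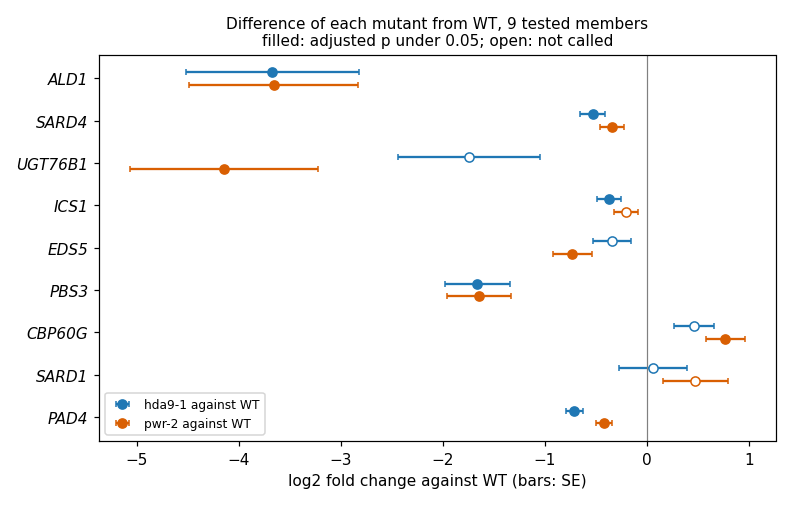
Log2 fold change against WT (horizontal axis) with SE bars for the 9 tested members, in hda9-1 (blue) and pwr-2 (orange), with filled points where the gene was called. ALD1, UGT76B1 and PBS3 lie farthest below 0, and CBP60G and SARD1 lie above 0 in both mutants, with CBP60G called in pwr-2.

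PBS3 had the largest difference among the salicylate enzymes. It had 29.3, 21.8 and 29.0 CPM in WT, 6.42, 4.31 and 16.2 CPM in hda9-1, and 9.72, 8.48 and 7.28 CPM in pwr-2. No mutant library reached the lowest WT library, and hda9-1 replicate 3 came nearest. PBS3 fell by 1.66 in hda9-1 (log2, SE 0.32, adjusted p = 0.00220) and by 1.65 in pwr-2 (log2, SE 0.31, adjusted p = 0.00259), and it was called in both mutants under each of the alternatives run.

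ICS1, the isochorismate synthase, had 38.9, 32.8 and 42.3 CPM in WT, 25.6, 27.4 and 35.9 CPM in hda9-1 and 33.2, 31.6 and 33.4 CPM in pwr-2. The WT and hda9-1 ranges overlapped through WT replicate 2 and hda9-1 replicate 3. The log2 fold change was -0.38 in hda9-1 (SE 0.12, adjusted p = 0.0278) and -0.21 in pwr-2 (SE 0.12, adjusted p = 0.183), where it was not called. The call in hda9-1 was lost with loess offsets (adjusted p = 0.0658), in a fit of WT and hda9-1 alone (0.0576) and without WT replicate 1 (0.0689), WT replicate 3 (0.0740), hda9-1 replicate 1 (0.0955) or hda9-1 replicate 2 (0.0959). Of the 1592 stretches of 50 bases in the exons of ICS1, 7 occur elsewhere in the genome, so few reads can be shared with a copy.

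EDS5, the isochorismate exporter, had 26.3, 21.3 and 30.3 CPM in WT, 19.4, 14.9 and 28.3 CPM in hda9-1 and 15.4, 16.0 and 15.2 CPM in pwr-2. The pwr-2 libraries were close together and below WT, and hda9-1 replicate 3 lay within the WT range. EDS5 fell by 0.73 in pwr-2 (log2, SE 0.19, adjusted p = 0.0132), a call lost with loess offsets (adjusted p = 0.0527). In hda9-1 the log2 fold change was -0.34 (SE 0.19, adjusted p = 0.175), which was called with the block over the 6 libraries of WT and hda9-1 (adjusted p = 0.00396) and without hda9-1 replicate 3 (log2 fold change -0.58, adjusted p = 0.0147). EDS5 shares 9.42% of its exon bases with AT4G39040 on the other strand.

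PAD4 had the smallest spread of the regulators. It had 41.9, 38.0 and 41.8 CPM in WT, 24.5, 22.4 and 27.7 CPM in hda9-1 and 31.6, 28.0 and 31.3 CPM in pwr-2. The 3 genotypes did not overlap, with pwr-2 between WT and hda9-1. PAD4 fell by 0.72 in hda9-1 (log2, SE 0.08, adjusted p = 8.2e-05) and by 0.42 in pwr-2 (log2, SE 0.08, adjusted p = 0.00262), under all alternatives run.

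CBP60G, by contrast, had 27.5, 29.7 and 55.2 CPM in WT, 49.97, 47.6 and 54.4 CPM in hda9-1 and 59.6, 65.6 and 61.9 CPM in pwr-2. WT replicate 3 lay above all hda9-1 libraries and below all pwr-2 libraries, while WT replicates 1 and 2 were below every mutant library. CBP60G rose by 0.77 in pwr-2 (log2, SE 0.19, adjusted p = 0.0105), and the adjusted p reached 0.0499 over the alternatives run. In hda9-1 the log2 fold change was 0.46 (SE 0.20, adjusted p = 0.0909). This difference was called with the replicate block (adjusted p = 0.0466 over 9 libraries and 0.00137 over 6) and without WT replicate 3, where the log2 fold change was 0.81 (adjusted p = 2.7e-05).

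SARD1, the partner of CBP60G, had 21.8, 10.4 and 21.5 CPM in WT, 12.5, 13.8 and 31.4 CPM in hda9-1 and 22.0, 28.7 and 22.5 CPM in pwr-2. All pwr-2 libraries lay above WT, narrowly, and the hda9-1 and WT ranges overlapped. The log2 fold changes were 0.06 in hda9-1 (SE 0.33, adjusted p = 0.908) and 0.47 in pwr-2 (SE 0.32, adjusted p = 0.277), and the first turned to -0.42 without hda9-1 replicate 3 (adjusted p = 0.279), to -0.24 without WT replicate 2 and to -0.02 with upper-quartile factors. SARD1 shares 18.4% of its exon bases with AT1G73790 on the other strand, and whether the counting used strand is not given in the sources used here.

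The counts in this paragraph only describe the members, which were chosen with earlier results of these data known. ALD1 and UGT76B1 could not have passed the filter without WT libraries, which favours a lower call for both. Counted over the 9 tested members, 0 were called higher and 5 lower in hda9-1, where 17.6% of all tested genes were called higher and 16.6% lower. The 5 were ALD1, SARD4, ICS1, PBS3 and PAD4, and the median log2 fold change of the 9 was -0.53 against 0.002 over all tested genes. At an unadjusted p under 0.05, 1 member was higher in hda9-1, CBP60G, and DESeq2 called 0. The share of all tested genes at that unadjusted p was not computed. All hda9-1 libraries lay below all WT libraries for 4 of the 9 (22.9% of all tested genes) and above them for 0 of the 9 (23.5%). In pwr-2, 1 member was called higher and 6 lower, against 16% and 15.3% of all tested genes. The 6 were ALD1, SARD4, UGT76B1, EDS5, PBS3 and PAD4, and the median log2 fold change was -0.42 against -0.006 over all. All pwr-2 libraries lay below all WT libraries for 6 of the 9 (24.7% of all tested genes) and above them for 2, CBP60G and SARD1 (25.7%). Both comparisons use the same WT libraries, so their values are not independent of each other. Among all tested genes 51.6% of the calls in hda9-1 and 51.1% of those in pwr-2 were higher, and with upper-quartile factors these shares were 32.9% and 32.6%, with the median of all genes shifted to -0.08 in each.

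The mutants were also compared with each other directly. No tested member was called between pwr-2 and hda9-1, where 0.312% of all tested genes were called higher in pwr-2 and 0.109% lower. At an unadjusted p under 0.05, 1 member, PAD4, was higher and 0 were lower, and DESeq2 called 0 in each direction. The share of all tested genes at that unadjusted p was not computed. PAD4 had a log2 difference of 0.30 (SE 0.09, adjusted p = 0.162) and CBP60G one of 0.31 (SE 0.19, adjusted p = 0.506), and both had all pwr-2 libraries above all hda9-1 libraries. The share of all tested genes with such a separation of the mutants was not computed, so it is a description only. Without WT replicate 3 the difference of CBP60G was called (log2 0.32, adjusted p = 0.0469). UGT76B1 had the widest difference, -2.40 (SE 1.1, adjusted p = 0.383), and the summed counts of FMO1 gave a log2 ratio of -1.23 with a counting interval of -3.10 to 0.42. ALD1 and PBS3 both differed by 0.01 (SE 1.24 and 0.36, adjusted p = 0.999 and 0.995). SARD4, ICS1, EDS5 and SARD1 differed by 0.19 (SE 0.13), 0.17 (SE 0.12), -0.39 (SE 0.20) and 0.41 (SE 0.33), none past the threshold.

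In WT and hda9-1, most members were lowest in the same library, which was not so in pwr-2. WT replicate 2 was the lowest WT library for 9 of the 10 members, the exception being CBP60G, and it was the lowest for 28.8% of all tested genes. hda9-1 replicate 2 was the lowest hda9-1 library for 8 of the 10, against 25% of all tested genes. Neither WT replicate 3 nor hda9-1 replicate 3 was the lowest for a member. In pwr-2 the lowest library was replicate 3 for 5 members, replicate 2 for 3 and replicate 1 for 2. The ratio of the highest to the lowest WT library was 27 for FMO1, 8.36 for ALD1 and 5.80 for UGT76B1, while the fourth pipecolate gene, SARD4, had 1.31 and PAD4 1.1. In hda9-1 this ratio was 29.7 for UGT76B1, from a lowest value of 1 count. WT replicate 2 was the deepest library and hda9-1 replicate 3, the one with the most ribosomal RNA, was the shallowest, and the part of depth or RNA quality in the members' values was not tested.

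**Figure D3:**
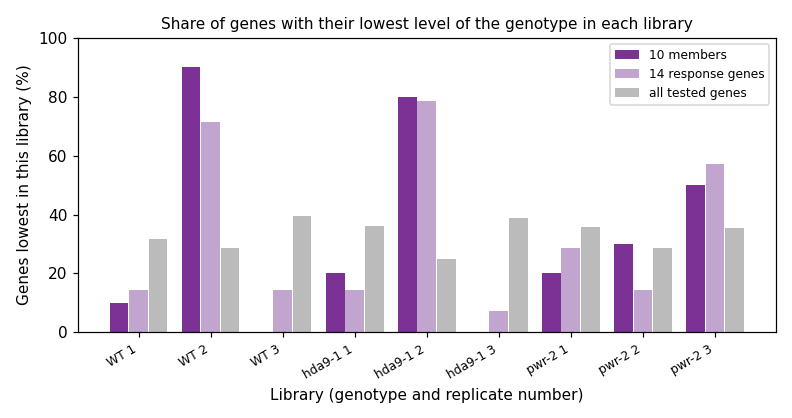
Share of genes (%, vertical axis from 0) that have their lowest level of the genotype in each library (horizontal axis), for the 10 members (dark), the 14 response genes (light) and all 20171 tested genes (grey). WT replicate 2 holds the lowest value of 90% of the members and hda9-1 replicate 2 of 80%, against 28.8% and 25% of all tested genes.

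The 14 genes of the salicylate response that were described beside the members showed the same libraries as low. Among them are the pathogenesis-related genes PR1, PR2 and PR5, the salicylate receptors NPR1, NPR3 and NPR4, and NIMIN1 and NIMIN2, which encode partners of NPR1. WT replicate 2 was the lowest WT library for 10 of the 14 and hda9-1 replicate 2 the lowest hda9-1 library for 11 of the 14. PR2, a glucanase gene, had 80.3, 49.8 and 94.2 CPM in WT, 18.8, 0.221 and 62.7 CPM in hda9-1 and 8.24, 7.30 and 3.41 CPM in pwr-2. It fell by 3.56 in pwr-2 (log2, SE 0.77, adjusted p = 0.00551), while in hda9-1, where the libraries spread from near the floor to the WT range, its log2 fold change was -1.61 (SE 0.63, adjusted p = 0.0661). With the replicate block this difference was called (adjusted p = 0.0267 over 9 libraries and 0.000448 over 6), as it was without hda9-1 replicate 3 (adjusted p = 0.00367) and with no filter (0.0438).

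**Figure D4:**
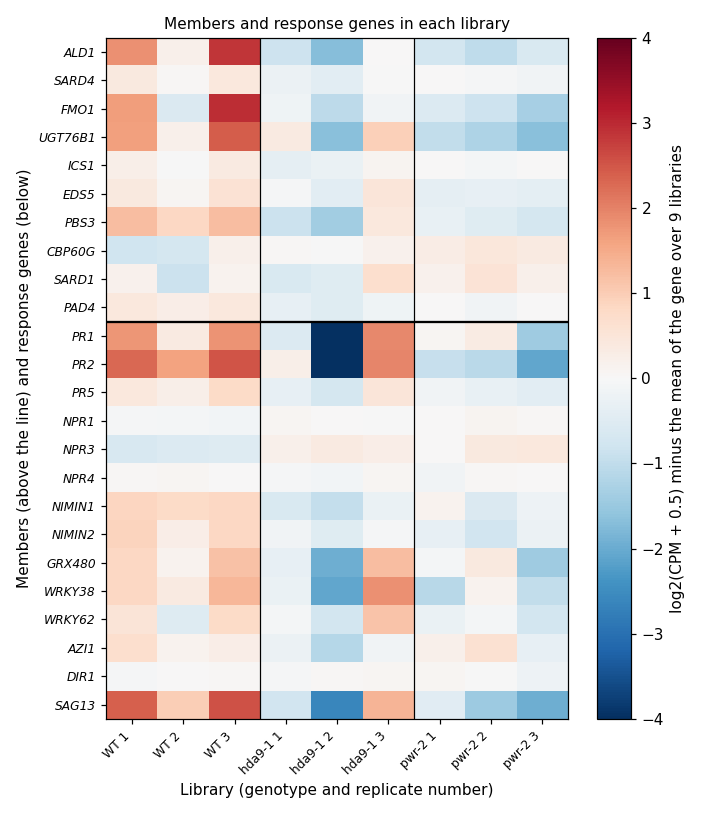
Heat map of the 10 members (above the line) and 14 response genes (below) in the 9 libraries, as log2(CPM + 0.5) minus the mean of the gene over the libraries, with red above and blue below the mean. The colour scale stops at 4, and PR1 and PR2 in hda9-1 replicate 2 lie beyond it. ALD1, FMO1 and UGT76B1 are reddest in WT replicates 1 and 3, and CBP60G is blue in WT replicates 1 and 2.

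Of these 14 response genes, all tested, 1 was called higher and 4 lower in hda9-1, and 1 higher and 5 lower in pwr-2, with median log2 fold changes of -0.76 and -1.13. Over all tested genes 17.6% were called higher and 16.6% lower in hda9-1, and 16% and 15.3% in pwr-2. The number lower in hda9-1 was 2 with loess offsets, without WT replicate 1 and without hda9-1 replicate 2, 7 with the replicate block over 6 libraries and 8 without hda9-1 replicate 3. Over all genes, in both directions, 6225 were called with loess offsets, 5066 without WT replicate 1 and 5450 without hda9-1 replicate 2. With the block over 6 libraries 9472 were called and without hda9-1 replicate 3 6085, against 6897 in the main fit. NPR3 rose in both mutants, from 56.1 ± 2.9 CPM (SD, n = 3) in WT to 101.3 ± 5.4 in hda9-1 (log2 fold change 0.85, SE 0.10, adjusted p = 6.0e-05) and 101.9 ± 15 in pwr-2 (0.86, SE 0.09, adjusted p = 7.2e-05). NIMIN1 fell by 1.67 in hda9-1 (log2, SE 0.27, adjusted p = 0.000743) and by 1.16 in pwr-2 (SE 0.25, adjusted p = 0.00566), from 5.40 ± 0.20 CPM in WT. NIMIN2 fell by 0.97 in hda9-1 (log2, SE 0.23, adjusted p = 0.00785) and by 1.20 in pwr-2 (SE 0.24, adjusted p = 0.00317), from 8.13 ± 1.9 CPM in WT. SAG13, a gene also induced in senescing leaves, fell by 2.32 in hda9-1 (log2, SE 0.72, adjusted p = 0.0276), a call lost with loess offsets (adjusted p = 0.0681), with DESeq2 (0.204) and without WT replicate 1 (0.0816), WT replicate 3 (0.0748), hda9-1 replicate 1 (0.0789) or hda9-1 replicate 2 (0.0716). In pwr-2 it fell by 3.75 (log2, SE 0.83, adjusted p = 0.00621).

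Another 29 genes are known or likely regulators of salicylate synthesis, and all were tested. In hda9-1, 9 were called higher and 5 lower, and in pwr-2 11 higher and 3 lower, with median log2 fold changes of 0.11 and 0.12, against the same 17.6% and 16.6% of all tested genes in hda9-1 and 16% and 15.3% in pwr-2. CBP60A, a relative of CBP60G that restrains salicylate synthesis, rose by 0.85 in hda9-1 (log2, SE 0.09, adjusted p = 5.8e-05) and by 0.59 in pwr-2 (SE 0.10, adjusted p = 0.00106), from 38.2 ± 1.2 CPM in WT. CAMTA2, a calmodulin-binding factor whose family restrains CBP60G and SARD1, rose by 0.48 in hda9-1 (log2, SE 0.06, adjusted p = 6.7e-05) and by 0.42 in pwr-2 (SE 0.06, adjusted p = 0.000272). ADR1, a helper immune receptor, rose by 0.72 in hda9-1 (log2, SE 0.09, adjusted p = 9.5e-05) and by 0.85 in pwr-2 (SE 0.08, adjusted p = 3.9e-05). WRKY54, a factor that restrains salicylate synthesis with WRKY70, fell by 1.28 in hda9-1 (log2, SE 0.16, adjusted p = 0.000138) and by 1.15 in pwr-2 (SE 0.16, adjusted p = 0.000329), from 31.8 ± 2.9 CPM in WT. WRKY70 itself did not fall. Its log2 fold change was 0.107 in hda9-1 (SE 0.118, adjusted p = 0.511, not called) and 0.387 in pwr-2 (SE 0.115, adjusted p = 0.0243). The locus AT4G31000 rose by 1.65 in hda9-1 (log2, SE 0.20, adjusted p = 0.00012), from 12.6 ± 2.5 to 39.4 ± 8.7 CPM, and by 1.16 in pwr-2 (SE 0.21, adjusted p = 0.00193). The number lower in hda9-1 was 2 with loess offsets and without WT replicate 3, and it was 3 in the fit of WT and hda9-1 alone, with DESeq2 and after leaving out WT replicate 1, hda9-1 replicate 1 or hda9-1 replicate 2. The number lower in pwr-2 was 1 without WT replicate 1 and without pwr-2 replicate 3.

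Of 21 other genes of salicylate and lysine metabolism, 18 were tested. In hda9-1, 3 were called higher and 5 lower, and in pwr-2 3 higher and 4 lower, with median log2 fold changes of -0.04 and -0.06. The shares over all tested genes were again 17.6% and 16.6%, and 16% and 15.3%. GH3.5, which joins amino acids to auxin and salicylate, rose from 65.8 ± 10.8 CPM (SD, n = 3) in WT to 111.4 ± 13.2 in hda9-1 (log2 fold change 0.76, SE 0.11, adjusted p = 0.000289) and 111.0 ± 3.3 in pwr-2 (0.76, SE 0.11, adjusted p = 0.000385). EPS1, which releases salicylate from the product of PBS3, fell from 15.1 ± 0.30 to 8.32 ± 0.46 CPM in hda9-1 (log2 fold change -0.86, SE 0.16, adjusted p = 0.00214). In pwr-2 it fell by 0.52 (log2, SE 0.16, adjusted p = 0.0255), a call lost with loess offsets (adjusted p = 0.144) and without WT replicate 1 (0.0713), WT replicate 2 (0.0740), pwr-2 replicate 2 (0.108) or pwr-2 replicate 3 (0.0990). DMR6, a salicylate hydroxylase, fell by 0.75 in hda9-1 (log2, SE 0.23, adjusted p = 0.0246) and by 0.88 in pwr-2 (SE 0.23, adjusted p = 0.0131). These calls of DMR6 were lost without WT replicate 1 (adjusted p = 0.0979 and 0.0565), and in hda9-1 also with loess offsets (0.0565) and without hda9-1 replicate 1 (0.0760) or hda9-1 replicate 2 (0.102), and in pwr-2 without pwr-2 replicate 3 (0.0512). UGT74F2, a salicylate glucosyltransferase, rose by 0.30 in hda9-1 (log2, SE 0.08, adjusted p = 0.0163) and by 0.28 in pwr-2 (SE 0.08, adjusted p = 0.0238). These calls were lost without WT replicate 1 (adjusted p = 0.0514 and 0.0678) or WT replicate 2 (0.0680 and 0.0865), and in pwr-2 also without pwr-2 replicate 1 (0.0598), pwr-2 replicate 2 (0.0589) or pwr-2 replicate 3 (0.0565). PAL3, of the phenylalanine ammonia-lyase family, rose by 0.37 in pwr-2 (log2, SE 0.08, adjusted p = 0.00674) and by 0.27 in hda9-1 (SE 0.08, adjusted p = 0.0275). MES7, a methyl salicylate esterase, fell by 1.03 in pwr-2 (log2, SE 0.24, adjusted p = 0.00816) and by 0.71 in hda9-1 (SE 0.24, adjusted p = 0.0366). The call of PAL3 in hda9-1 was lost with upper-quartile factors (adjusted p = 0.0680), with loess offsets (0.0858) and on leaving out WT replicate 1 (0.101), hda9-1 replicate 2 (0.0894) or hda9-1 replicate 3 (0.0775). That of MES7 was lost with loess offsets (adjusted p = 0.165), with DESeq2 (0.0816) and on leaving out WT replicate 1 (0.159), WT replicate 2 (0.0843), hda9-1 replicate 1 (0.0579), hda9-1 replicate 2 (0.0547) or hda9-1 replicate 3 (0.0957). The number lower in hda9-1 was 1 without hda9-1 replicate 2, 2 with DESeq2 and on leaving out WT replicate 1 or hda9-1 replicate 1, and 3 with loess offsets and on leaving out WT replicate 2 or WT replicate 3, and the number higher was 1 on leaving out WT replicate 1. In pwr-2 the number lower was 1 without WT replicate 1 and without pwr-2 replicate 3, and 2 with loess offsets and without pwr-2 replicate 2, and the number higher was 5 with WT and pwr-2 alone and without hda9-1 replicate 1. Between the mutants, edgeR over the 9 libraries and DESeq2 called 0 genes of each of these lists. For the regulators, edgeR called 1 higher in pwr-2 in the fit of the 2 mutants alone, without WT replicate 3 and without pwr-2 replicate 3. At an unadjusted p under 0.05, 1 response gene was higher in pwr-2, 6 regulators were higher and 3 lower, and 2 metabolic genes were higher and 1 lower. The share of all tested genes at that unadjusted p was not computed, so these counts are a description only.

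Genes whose levels followed ICS1 and PBS3 were sought among the tested genes outside the members that have a symbol in RefSeq. Loci without a symbol and the other members were not ranked. The closest of the ranked genes are named by Pearson's r of log2 CPM over the 9 libraries, which share genotype and depth, as a description. For ICS1 they were NIT2, a nitrilase gene, with r = 0.956, PRXCA, a peroxidase gene, with r = 0.954, and PRMT10, an arginine methyltransferase gene, with r = 0.949. For PBS3 they were RLP38, of the receptor-like proteins, with r = 0.986, RLK1, of the receptor-like kinases, with r = 0.985, and PGDH, of the phosphoglycerate dehydrogenases, with r = 0.983.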

How the data were processed

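RNA-seq counts per gene of 9 Arabidopsis libraries (3 genotypes, 3 replicates each) were used as deposited. The count table was deposited by the authors as whole numbers with no normalization. HISAT2 and the TAIR10 build are named in the submitters' processing notes, and the counting program, annotation and strand setting are not given in the sources used here. The libraries were stranded, per the labels' protocols. Library totals were 6450661 to 11150773 counts.

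Genes were filtered with filterByExpr and tested in 1 model of genotype over the 9 libraries with edgeR 4.0.16 (TMM factors, quasi-likelihood F test, R 4.3.3), with Benjamini-Hochberg adjustment over 20171 genes and a threshold of 0.05. SE is the log2 fold change divided by the root of F. The fit was tested on simulated data. Intervals of summed count ratios are exact binomial intervals at 95%, and floors are 3 counts per library. Both cover counting error only. Exon lengths, overlaps, 50-base repeats and promoters come from RefSeq's TAIR10.1, to which all locus identifiers of the lists matched.

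The 10 members and the lists were chosen with earlier results of these data known. All members are named, HDA9 and PWR as a check of the labels, and from each list up to 4 called genes with the smallest adjusted p per mutant. PR1, PR5, NPR1 and NPR4 are named only as members of their list. WRKY70 is given only as the partner of WRKY54, without its alternatives. WRKY54, AT4G31000, EPS1, UGT74F2, PAL3, MES7, SAG13 and PR2 were each among these 4 in 1 mutant, and their values are given for both. Alternatives were RLE, upper-quartile and loess scaling, no filter, DESeq2 1.42.0, 2 genotypes only, the replicate number as a block, and leaving out each library. Same-numbered WT and hda9-1 libraries deviated together from their genotype means (r = 0.359, 0.448 and 0.456), so the numbers were tried as a pairing of these genotypes. For WT and pwr-2 the r were -0.123, -0.0137 and -0.128, and for hda9-1 and pwr-2 -0.221, -0.189 and -0.241, so they were not paired there. This pairing comes from the data, not from the labels, and the block over WT and hda9-1 alone was added after seeing the data. For each gene the deviations of the 3 libraries of a genotype sum to 0, so some order of the numbers favours positive r. Whether WT and hda9-1 libraries were paired is therefore not settled, and the main fit uses no block.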

Additional observations from a re-analysis of the deposited data

How the results depend on the processing

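ALD1, SARD4, PBS3 and PAD4 were called lower in hda9-1, and ALD1, UGT76B1, PBS3 and PAD4 lower and CBP60G higher in pwr-2, under each alternative run. The number of members called lower ranged from 4 to 7 in each mutant. It runs over 10 members in the alternatives that tested FMO1 and over 9 in the others. In pwr-2 each count of 7 includes FMO1. The number called higher in hda9-1 was 1 with the replicate block and 1 with the block over WT and hda9-1 only, and 0 to 1 when each library was left out. Between the mutants it was also 0 to 1 when a library was left out. The block left the members' calls in pwr-2 and between the mutants unchanged in number. Over all genes, 6897 were called in hda9-1, and 4932 to 7137 when a library was left out. It was 6225 with loess offsets, 5887 with WT and hda9-1 alone, 5086 with DESeq2 and 9472 with the block over WT and hda9-1 only. In pwr-2 6326 were called, and 3917 to 7581 when a library was left out, 5394 with loess offsets and 7608 with WT and pwr-2 alone. These totals hold both directions, and the counts of members and lists under an alternative are to be read beside them. Between the mutants 85 were called, against 160 with loess offsets, 179 with no filter, 179 with DESeq2 and 9 to 252 when a library was left out. Genes with differences near 0 changed sign. SARD1 in hda9-1 was -0.022 (log2) with upper-quartile factors and -0.42 to 0.29 when a library was left out. Between the mutants, ALD1 was -0.013 with loess offsets, -0.039 with the replicate block, -0.089 with DESeq2 and -0.63 to 1.04 when a library was left out, and PBS3 was -0.002 with 2 genotypes only, -0.072 with DESeq2 and -0.33 to 0.65 when a library was left out. The causes were not tested. Depth limits ALD1, FMO1 and UGT76B1, which had 0 to 20 counts in each mutant library.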
